A study of Mus musculus with 15 samples.

Results

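The 6 trypsinogen genes Prss1, Prss2, Prss3, Try4, Try5 and Try10 were described across 15 RNA-seq libraries of mouse spleen leukemia. They were picked by symbol from 39827 genes with counts, as the trypsinogens that lie on chromosome 6 inside the T cell receptor beta locus, and they were picked because the level of Prss2 was known to differ between groups. Their levels are therefore given as a description, without a test. All 6 sit between the segments Trbv30 and Trbd1 of the GRCm38.p6 annotation.

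The leukemias came from bone marrow progenitors (GFP+Lineage-cKit+Sca1+) transduced with ΔE-NOTCH1, a NOTCH1 without its outer domain that signals without ligand, and lethally irradiated C57BL/6J mice served as hosts. Each of 5 groups held 3 libraries. They were WT0 PBS, WT0 ERG-245 (the BCAT1 inhibitor), WT6, KO3 and KO7, where WT and KO stand for Bcat1 wild type and knock-out and PBS is the labelled treatment of every group but the ERG-245 one. ERG-245 was given intraperitoneally in 3 doses of 30 mg/kg, 8 h apart. Every group carries ΔE-NOTCH1. The labels give neither the ages nor the meaning of the numbers in the group names, and they do not say whether the libraries of a group are separate mice. P-values measure only the spread between these libraries, which may be technical.

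Total counts were 17441292 to 28902573 per library. Bcat1, the deleted or inhibited gene, stood at 17.8 CPM (counts scaled to a library total adjusted by TMM) in WT0 PBS, 13.3 in WT0 ERG-245, 35.2 in WT6, 2.09 in KO7 and 6.95 CPM in KO3. All 11 T cell markers had counts in every group and summed to 3290 to 5606 CPM per library. Erythroid markers summed to 10802 to 59049 CPM, B cell markers to 793 to 2307 CPM and macrophage markers to 981 to 3467 CPM, so RNA of other spleen cells was present in all groups.

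Trypsinogens are the inactive precursors of trypsin, a digestive serine protease that cuts proteins after lysine or arginine. Acinar cells of the pancreas store them in zymogen granules, enteropeptidase activates them in the gut, and the inhibitor Spink1 holds early activation in check. In the mouse, a cluster of these genes lies within the receptor beta locus, downstream of most V segments and upstream of the D, J and C segments. When a thymocyte joins an upstream V segment to a D-J unit, the DNA in between is cut out of that chromosome, and the D-J step itself leaves that stretch in place. Trbv31, which lies beyond the last C segment in the opposite orientation, joins by inversion. These statements are background and were not measured here.

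The locus was followed from Trbv1 to Trbv31, chr6:40891296-41558371, a span of 667 kb. Along it, after Trbv30, come Try4 (gene ID 22074, chr6:41302272-41305533, plus strand), Try5 (103964, chr6:41311232-41314710, minus), Try10 (436522, chr6:41354105-41357944, plus), Prss3 (22073, chr6:41373759-41377613, minus), Prss1 (114228, chr6:41458930-41463786, plus) and Prss2 (22072, chr6:41521776-41525079, plus). Each has 5 exons, and the merged exons of Prss2 span 826 bases. Prss2 lies nearest to the D, J and C segments, with 8122 bases from its end to Trbd1, 8785 bases to Trbj1-1 and 13.14 kb to Trbc1. Trbv30, the nearest V segment upstream, ends 239.786 kb before Prss2.

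RefSeq promoters of GRCm38.p6 were at hand for 4 of the 6 genes (Try4, Prss3, Prss1 and Prss2), each as 250 bases before to 50 bases after the annotated start. Prss2, which had most of the counts, is shown beside Prss1, its nearest neighbour among the 6 and nearly without counts. The Prss2 stretch is chr6:41521526-41521825 and the Prss1 stretch chr6:41458680-41458979, both on the plus strand. Capitals mark the word TATAAA (known as a box of that name) and the E-box word CACCTG with its reverse complement CAGGTG. The words do not overlap each other.
Prss2 promoter: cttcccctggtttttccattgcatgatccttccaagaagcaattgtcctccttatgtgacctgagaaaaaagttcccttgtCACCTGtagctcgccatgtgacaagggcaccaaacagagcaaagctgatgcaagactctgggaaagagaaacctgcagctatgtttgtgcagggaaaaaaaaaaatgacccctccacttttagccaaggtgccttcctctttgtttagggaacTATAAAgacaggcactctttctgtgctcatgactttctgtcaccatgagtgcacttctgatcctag
Prss1 promoter: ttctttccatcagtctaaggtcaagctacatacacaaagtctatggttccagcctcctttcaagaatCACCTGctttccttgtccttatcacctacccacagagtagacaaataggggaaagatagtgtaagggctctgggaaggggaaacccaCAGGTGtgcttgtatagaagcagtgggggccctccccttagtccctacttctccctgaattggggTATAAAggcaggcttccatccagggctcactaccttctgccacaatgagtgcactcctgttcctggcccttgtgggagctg
TATAAA begins 16 bases before the annotated start in Prss2, 31 bases before it in Prss1 and Try4 and 28 bases before it in Prss3. CACCTG begins 169 bases before the start in Prss2, 183 in Prss1 and 143 in Prss3, and CAGGTG begins 96 bases before it in Prss1 and Try4. On either strand, TATAAA stands in 13.6% and CACCTG in 20.2% of 32851 RefSeq promoters of the same 300 bases. The match of these letters is a description and shows no binding, and all 4 stretches hold both words, that of Prss2 and those of the 3 genes with 1 count each.

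Only Prss2 was transcribed at a level that could be followed. It held 2724, 2882 and 2120 counts in the 3 WT0 PBS libraries, or 121, 127 and 122 CPM. In WT0 ERG-245 it held 27, 44 and 47 counts, or 1.43, 2.29 and 2.38 CPM. WT6 libraries had 194, 137 and 157 counts, or 6.45, 5.39 and 6.96 CPM. The PBS libraries of WT0 stood apart from all others, and the WT6 libraries lay above those with ERG-245.

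In the knock-out KO7, Prss2 had 32, 30 and 21 counts, or 1.61, 1.70 and 1.19 CPM. The KO3 libraries had 0, 0 and 0 counts, where a limit of 3 counts in the group corresponds to 0.0467 CPM. Both knock-outs were thus below WT6, and KO3 was the single group without a fragment of Prss2. Limits from counts cover counting error only.

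**Figure D1:**
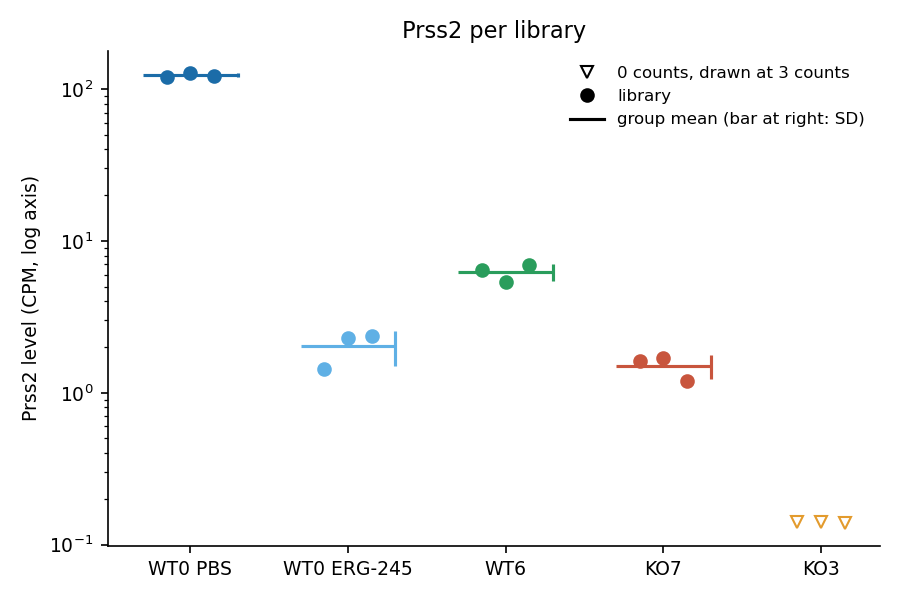
Prss2 level in CPM (log axis) for each library of the 5 groups; points are libraries, horizontal lines group means and the bar at their right end the SD, and open triangles are libraries with 0 counts drawn at the level of 3 counts. The 3 WT0 PBS libraries sit at 121 to 127 CPM, those of WT0 ERG-245 and of KO7 share the range of 1.19 to 2.38 CPM, and KO3 has 0 counts throughout.

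Group means put the groups in the order WT0 PBS (123 ± 3.21 CPM, SD, n = 3), WT6 (6.27 ± 0.801), WT0 ERG-245 (2.04 ± 0.526), KO7 (1.5 ± 0.271) and KO3. Neighbours in that order did not overlap in their libraries, except WT0 ERG-245 and KO7. Non-overlap in the lower direction was also seen for KO7 and KO3 against WT0 PBS (35.8% and 33.5% of tested genes) and for KO3 against WT0 ERG-245 (33.3%). Per exon length, the level of Prss2 was 149 RPKM in WT0 PBS, above 97.8% of the 15948 genes tested, against a median gene of 5.71 RPKM. It was 7.59 RPKM in WT6, above 55.7% of genes, 2.46 RPKM in WT0 ERG-245, above 37.0%, and 1.82 RPKM in KO7, above 32.7%. In bulk RNA, fewer cells that transcribe Prss2 and less Prss2 RNA per cell cannot be told apart.

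The inhibitor comparison asks what BCAT1 inhibition does in a leukemia with intact Bcat1. Prss2 was 60.6-fold lower in WT0 ERG-245 than with PBS, a log2 ratio of group means of -5.92, which leaves 1.65% of the PBS level. The groups did not overlap, which held in the lower direction for 33.8% of tested genes. T cell markers summed to 3994 to 4030 CPM with PBS and 3290 to 3322 in WT0 ERG-245, and relative to summed Cd3 counts the log2 ratio was -5.16. These groups also differed in their leading V segment, as given below, and treatment and leukemic clone cannot be told apart here.

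Against WT6, Prss2 was 4.17-fold lower in KO7 (log2 ratio -2.06), and non-overlap in the lower direction was seen for 37.2% of tested genes. In KO3 it was at least 134-fold lower than in WT6, from a floor of 3 counts over the group, where 33.5% of tested genes were lower without overlap. Both comparisons use the same WT6 libraries, so they are not independent. Between the knock-outs, KO3 was at least 32.2-fold below KO7, where 35.1% of tested genes were lower without overlap.

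The wild-type leukemias also differed from each other. Prss2 was 19.7-fold lower in WT6 than in WT0 PBS (log2 ratio -4.30), where 36.4% of tested genes were lower without overlap. Against WT0 ERG-245, it was 3.08-fold higher in WT6, where 38.5% of tested genes were higher without overlap. The difference between WT6 and WT0 PBS (19.7-fold) was thus larger than that between KO7 and WT6 (4.17-fold). It was smaller than that between KO3 and WT6 (at least 134-fold). Differences between these ratios were not tested. From WT0 ERG-245 to KO7 the log2 ratio was -0.44, and the libraries of both groups overlapped.

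The other 5 trypsinogens were at or near 0. Try5 had 0 counts in every library. Try4 had 1 count in all, in WT6 replicate 1, and Prss1 had 1, in KO7 replicate 1. Prss3 and Try10 each had 1 count, both in WT0 ERG-245 replicate 3. Over all 15 libraries a limit of 3 counts is 0.00944 CPM, and per library it is 0.0998 to 0.173 CPM. Only 1 of the 6 genes, Prss2, passed the filter on low counts, by the groups in which it was high, so the family could be followed through this gene alone.

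The genes are close copies, which bears on how well their counts can be told apart. Transcripts of Prss2 are 87.6% to 88.9% identical to those of the other 5, whereas Try4 and Try5 are 97.1% and Prss1 and Prss3 96.1% identical. No stretch of 100 bases of Prss2 (0 of 716) stands in the transcript of another gene of the reference set, and at 50 bases 7.83% of them do. For the other 5, between 11.6% (Try10) and 45.0% (Prss3) of stretches of 100 bases are shared with another gene, and between 40.8% (Try10) and 66.1% (Prss3) of stretches of 50 bases. No option for reads with several matches is given in the counting command, so the near-zero counts of Prss1, Prss3, Try4, Try5 and Try10 are uncertain.

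Another 7 protein-coding genes lie within the locus: Prss58, 1700074P13Rik, 1810009J06Rik, Gm2663, 2210010C04Rik, Gm5771 and Gm10334. Of these only 2210010C04Rik, a trypsin-like gene upstream of Trbv2, passed the filter. Its level was 1.19 ± 0.280 CPM in WT0 PBS, 0.953 ± 0.247 in WT0 ERG-245, 0.228 ± 0.114 in WT6, 0.750 ± 0.191 in KO7 and 1.5 ± 0.431 CPM in KO3 (SD, n = 3). Its mean was highest in KO3, the group with no Prss2 fragment, and lowest in WT6, with 4 to 8 counts per library. The KO3 libraries (1.07 to 1.94 CPM) overlapped those of WT0 PBS (0.888 to 1.44 CPM), the group with the highest Prss2 level. 2210010C04Rik rose in KO7 against WT6 (log2 1.74, SE 0.44, edgeR adjusted p = 0.000376), and likewise in KO3 against WT6 (log2 2.74, SE 0.37, edgeR adjusted p = 1.26e-09). In WT6 it was lower than in WT0 PBS (log2 -2.39, SE 0.39, edgeR adjusted p = 1.27e-07). With ERG-245 its difference of log2 -0.30 did not pass (edgeR adjusted p = 0.408).

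Among tested genes, 68.9% were called in KO7 against WT6, 59.7% in KO3 against WT6, 72.5% in WT6 against WT0 PBS and 65.8% with ERG-245 against PBS, so a single call says little about the locus. Gm2663 had 11, 9 and 7 counts in WT6 and at most 1 count in any other library. Gm5771 and Gm10334, between Prss3 and Prss1, had at most 1 count in any library. Prss58 and 1700074P13Rik had 0 counts throughout, and 1810009J06Rik had at most 6.

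V segments of the same locus, of which each T cell clone joins its own choice, had a different leader in every group. Trbv17 led in WT0 PBS, with a level of 297 ± 9.80 CPM (SD, n = 3). It stood at 4.82 ± 1.04 CPM in WT0 ERG-245, 13.6 ± 0.554 in WT6, 0.0524 in KO7 and 0.0623 CPM in KO3. The order of the first 3 groups is that of Prss2, while KO7, with 0 to 2 counts of Trbv17 per library, had 21 to 32 counts of Prss2. Other segments led elsewhere: Trbv16 in WT0 ERG-245 (258 ± 4.17 CPM), Trbv19 (328 ± 11.4 CPM) in WT6, and Trbv15 (1203 ± 12.8 CPM) and Trbv5 (492 ± 22.4 CPM) in the knock-outs KO3 and KO7.

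The leading segment took the smallest share of V counts where Prss2 was highest. Trbv17 held 39.7% in WT0 PBS, beside Trbv3 (19.1%) and Trbv19 (11.5%). The leading shares were 49.9% in WT0 ERG-245, 54.4% in WT6, 79.1% in KO7 and finally 85.6% in KO3, where Prss2 had 0 counts. The second segment was Trbv13-2 with 38.5% in WT0 ERG-245, Trbv2 with 18.9% in WT6, Trbv15 with 15.7% in KO7 and Trbv13-2 with 8.72% in KO3. All leading segments lie upstream of Prss2. Trbv31, on the far side, had a level of 0.105 to 0.470 CPM over the groups.

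**Figure D2:**
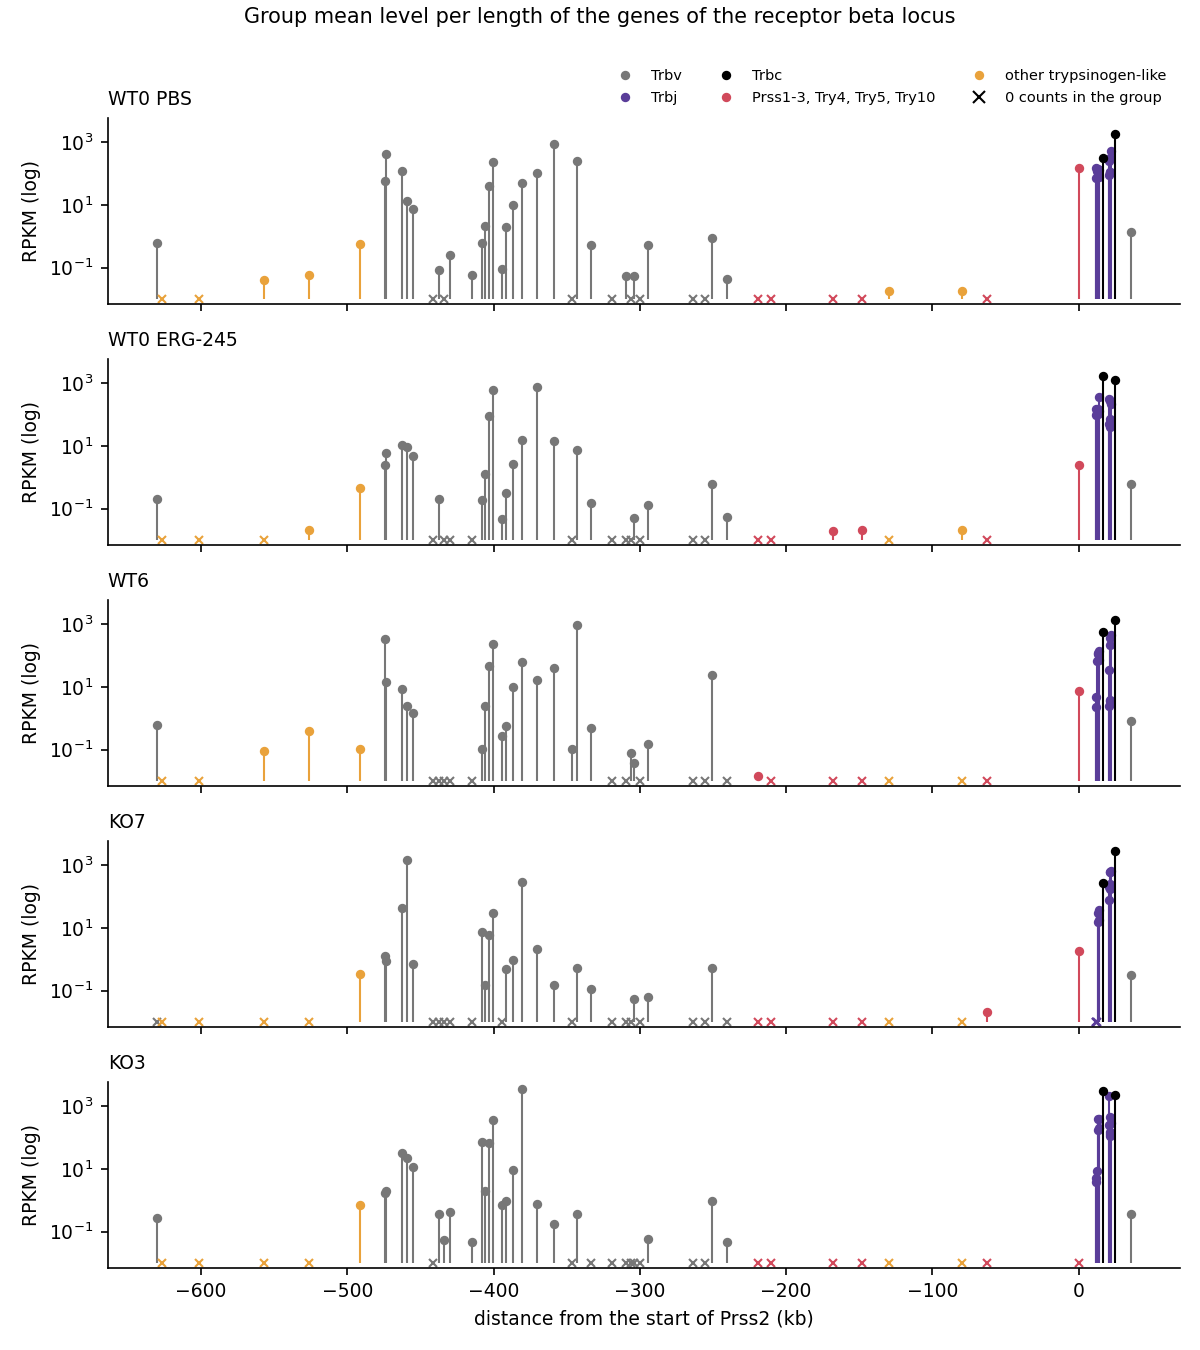
Group mean level per exon length (RPKM, log axis) of each gene of the receptor beta locus against its distance from the start of Prss2 in kb, with 1 panel for each group of 3 libraries. Trbd1 and Trbd2 are not drawn. Crosses at the bottom are genes with 0 counts in the group. Prss2, at distance 0, stands at 149 RPKM in WT0 PBS, at 1.82 to 7.59 RPKM in the next 3 panels and as a cross in KO3, while the other trypsinogens stay at or near 0 between it and the Trbv segments.

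On the other side of Prss2 lie Trbd1, the first group of J segments with Trbc1, then Trbd2 and the second group with Trbc2. Trbd1 (12 bases) and Trbd2 (14 bases) are shorter than the 25 bases of overlap that counting required and could not be counted. Fragments of the J segments numbered 1624 to 5119 per library. The leading J segment was Trbj2-7 in WT0 PBS (20.7% of J counts) and in WT6 (26.7%), Trbj1-6 in WT0 ERG-245 (18.6%), Trbj2-5 in KO7 (23.7%) and Trbj2-1 in KO3 (45.9%).

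Trbj1-1 and Trbj1-2, the J segments nearest to Prss2, were set beside it. Together they stood at 10.4 ± 0.706 CPM in WT0 PBS and at 12.1 ± 0.708 CPM in WT0 ERG-245 (SD, n = 3). In WT6 they stood at 0.342 ± 0.190 CPM, from 4 to 14 counts per library, and in KO3 at 0.435 ± 0.05 CPM, from 8 to 10 counts. KO7 had 0 counts of Trbj1-1, Trbj1-2 and Trbj1-3 in each library. The summed J pair and Prss2 thus did not share an order. The sum was about as high with ERG-245 as with PBS while Prss2 was 60.6-fold lower. Within the sum, Trbj1-1 was lower with ERG-245 (4.78 against 6.96 CPM) and Trbj1-2 was higher (7.29 against 3.46 CPM). KO7 had Prss2 counts but none of the pair, and KO3 had the pair but no Prss2.

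**Figure D3:**
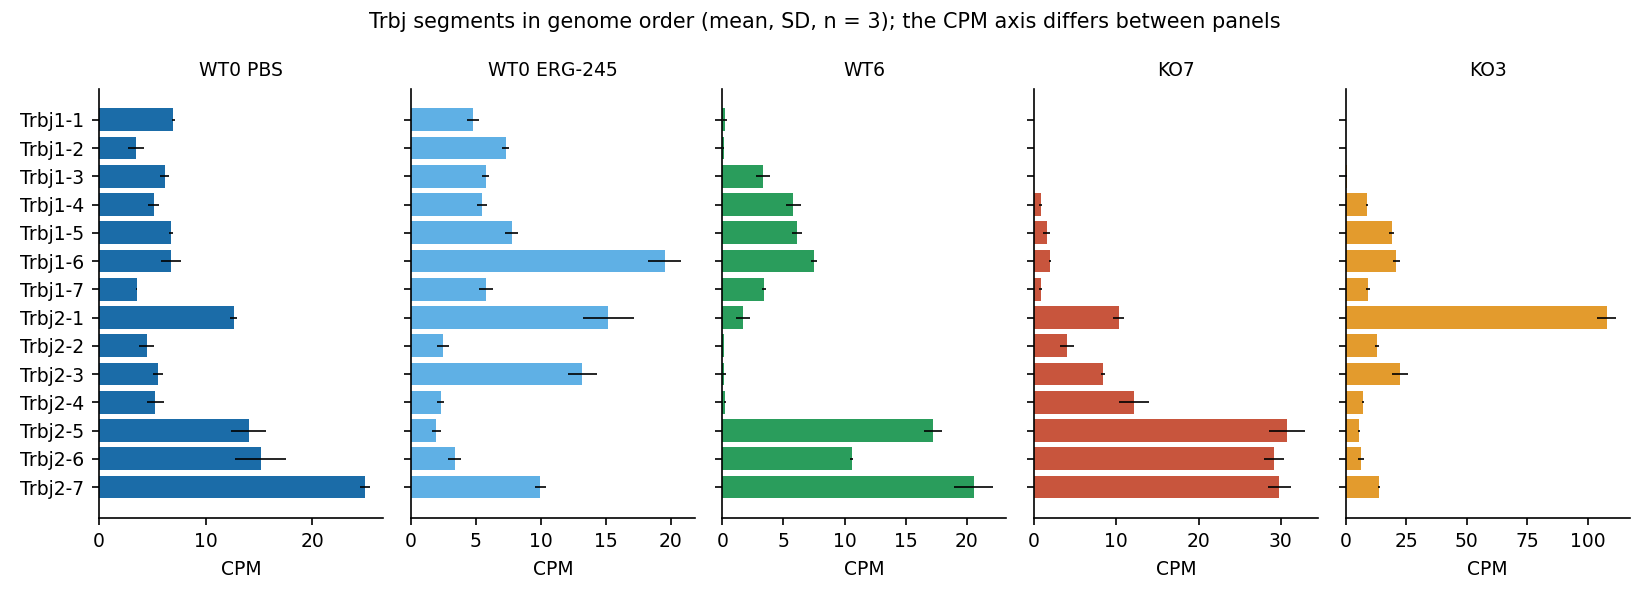
Level in CPM of the 14 Trbj segments in genome order for each group (bars are means, lines the SD, n = 3 libraries); the CPM axis starts at 0 and differs between panels. Trbj1-1 and Trbj1-2 are visible in both WT0 groups, at 10.4 and 12.1 CPM together, near 0 in WT6 and KO3, and at 0 counts in KO7.

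The first J group as a whole held 32.1% of J counts in WT0 PBS, 53.8% in WT0 ERG-245, 34.4% in WT6, 25.1% in KO3 and 3.91% in KO7. These are shares of counted fragments, and which J segment was joined was not measured. Trbc1, the C region that follows the first J group, stood at 166 ± 5.25 CPM in WT0 PBS, 852 ± 24.0 in WT0 ERG-245, 299 ± 3.92 in WT6, 137 ± 1.89 in KO7 and 1604 ± 7.89 CPM in KO3. Trbc2 stood at 924, 680, 718, 1511 and 1231 CPM in the same order. Trbc1 thus took 15.2%, 55.6%, 29.4%, 8.32% and 56.6% of C region counts. Its lowest level was in KO7 and its highest in KO3, so by these counts neither C region followed the level of Prss2. Sequence shared by Trbc1 and Trbc2 was not measured, and no option for reads with several matches is given in the counting command. Their counts may therefore not be fully told apart.

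Genes that cut and join these segments were followed as a list of 4. Rag1 and Rag2 form the recombinase, Dntt adds bases at the joints and Ptcra encodes the partner of the beta chain in the pre-T cell receptor. With ERG-245 all 4 fell (65.8% of tested genes were called), with Rag2 from 37.1 to 11.9 CPM (log2 -1.64, SE 0.07, edgeR adjusted p = 1.02e-35). The summed level of T cell markers was also lower there (11 of 11 had counts, with sums of 3994 to 4030 CPM with PBS and 3290 to 3322 CPM in WT0 ERG-245), and their part in the fall of the list was not tested. In KO7 against WT6, 3 of 4 rose and Rag1 did not pass, none by as much as 2-fold, where 68.9% of tested genes were called. In KO3 against WT6, 3 rose and 1 fell (59.7% of tested genes were called), with Rag2 from 20.8 to 74.5 CPM (log2 1.84) and Dntt from 256 to 692 CPM (log2 1.43). In WT6 against WT0 PBS, 2 rose and 2 fell, none by 2-fold, where 72.5% of tested genes were called.

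Acinar markers were followed beside Prss2, and most had no counts. Among 25 markers, 13 had 0 counts in every library: Cela3b, Ctrb1, Pnlip, Pnliprp1, Pnliprp2, Clps, Amy2a5, Amy2b, Pla2g1b, Sycn, Reg1, Ptf1a and Rbpjl. These include lipase, colipase and amylases, which acinar cells make in bulk, and the acinar transcription factors Ptf1a and Rbpjl. The summed level of the 25 was 28.5 to 28.9 CPM per library in WT0 PBS, where Prss2 alone stood at 121 to 127 CPM. It was 50.7 to 56.9 CPM in WT0 ERG-245, 20.7 to 22.8 in WT6, 46.9 to 56.2 in KO7 and 21.1 to 22.7 CPM in KO3. More of the 25 had a count in WT0 PBS (11) than in WT6 (9), KO3 (8), WT0 ERG-245 (7) or KO7 (6). The sum went the other way: it was lower in WT0 PBS than with ERG-245, where Prss2 was low. The direction of the sum was that of 1 gene, Cela1. Whether acinar cells were present was not tested.

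Nearly all of that sum was Cela1, a pancreatic elastase, at 26.1 CPM in WT0 PBS, 52.1 in WT0 ERG-245, 19.3 in WT6, 49.7 in KO7 and 19.5 CPM in KO3. Only 4 markers (Cela1, Ctrl, Gp2 and Zg16) passed the filter. With ERG-245 against PBS, 1 rose and 1 fell, none by 2-fold (median log2 -0.47 over the 4 and 0.00 over all tested genes, of which 65.8% were called). In KO7 against WT6, 3 rose and 1 fell (median 0.88 against -0.03, with 68.9% of tested genes called): Cela1 rose (log2 1.36, SE 0.06, edgeR adjusted p = 6.56e-35), Zg16, a lectin of zymogen granules, rose (1.11, SE 0.46, edgeR adjusted p = 0.0276), and Gp2, a glycoprotein of the granule membrane, fell from 45 counts in the WT6 libraries to 1 count in those of KO7, under the limit of 3 counts, so that no fold is given. Without WT6 replicate 2 or KO7 replicate 2, 2 genes were called instead of 4. With only the libraries of these 2 groups in the fit, Gp2 and Zg16 did not pass the filter, and Cela1 and Ctrl were still called. In KO3 against WT6 none of the 4 was called by edgeR or DESeq2, with 0 at an unadjusted p under 0.05 by edgeR. In WT6 against WT0 PBS, Gp2 rose and Cela1 and Zg16 fell, while Ctrl was not called. Of these, Gp2 and Zg16 changed at least 2-fold, where 18.9% of tested genes did so. The median log2 was -0.32 over the 4 and 0.00 over all tested genes, of which 72.5% were called.

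**Figure D4:**
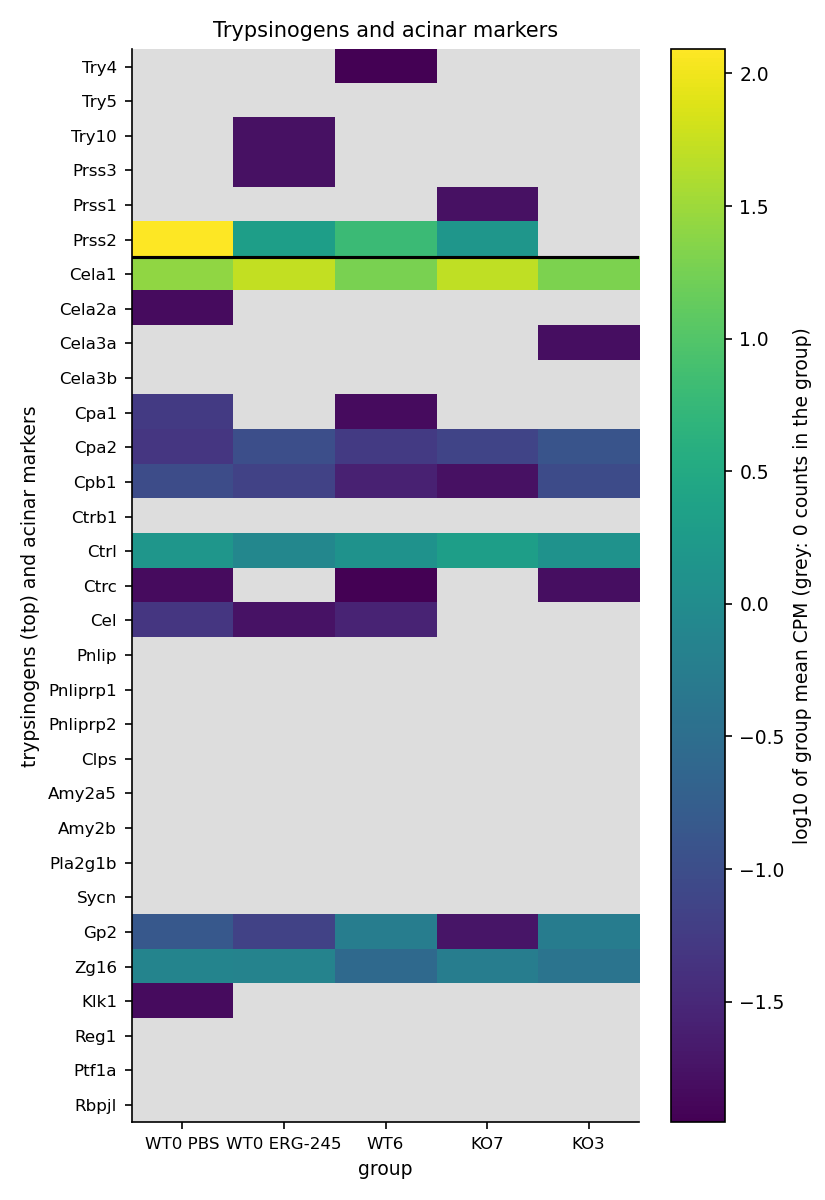
Group mean level, as log10 of CPM, of the 6 trypsinogens (above the line) and 25 acinar markers in the 5 groups of 3 libraries; grey cells are genes with 0 counts in the group. Prss2 has the highest cell of the plot, in WT0 PBS (123 CPM), and is grey in KO3, while Cela1 is the one acinar marker above 10 CPM and 13 markers are grey in every group.

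Proteins that activate, inhibit or sense trypsin were followed as 17 genes, of which 10 passed the filter. Enteropeptidase (Tmprss15) had 1 count in all libraries, Spink1 had 0, and Ctrc, which degrades trypsin, had 3. The receptor that trypsin cuts and activates, F2rl1, stood at 0.210 CPM in WT0 PBS, 0.120 in WT0 ERG-245, 0.955 in WT6, 0.328 in KO7 and 0.204 CPM in KO3. Its highest level was in WT6 and not in WT0 PBS, where Prss2 was highest. The intestinal activator and the pancreatic inhibitor were thus at or near 0 beside the high Prss2 level.

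With ERG-245 against PBS, 5 of the 10 rose and 2 fell (median log2 0.25 against 0.00 over all tested genes, of which 65.8% were called). F2rl2, a receptor of the thrombin receptor family, fell from 5.58 to 0.571 CPM (log2 -3.28, SE 0.21, edgeR adjusted p = 1.5e-23), and the protease trap A2m rose from 0.680 to 2.62 CPM (log2 1.90, SE 0.26, edgeR adjusted p = 7.02e-10). In WT6 against WT0 PBS, 7 of 10 rose and 0 fell (median 1.01 against 0.00), 5 of them at least 2-fold, where 72.5% of tested genes were called and 18.9% changed that much. Among these were A2m (log2 2.31), F2rl1 (2.20), Serpina1b (1.31), Spint2, a Kunitz inhibitor of membrane proteases (1.10), and F2r, the main thrombin receptor (1.04). Serpina1b, an alpha-1-antitrypsin, has close copies and its counts are uncertain.

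In KO7 against WT6, 3 rose and 5 fell (median log2 -0.13 against -0.03, with 68.9% of tested genes called). Ctsb, the lysosomal cathepsin that can activate trypsinogen, rose from 888 to 1869 CPM (log2 1.07, SE 0.02, edgeR adjusted p = 4.05e-56). Macrophages are rich in this enzyme, and all 9 macrophage markers had counts, with sums of 1492 to 1549 CPM in WT6 and 3447 to 3467 in KO7, whose part in the Ctsb result was not tested. Serpina1b (log2 -2.97), A2m (-2.62) and F2rl1 (-1.56) fell. In KO3 against WT6, 1 rose and 6 fell (median -0.26 against -0.02, with 59.7% of tested genes called), with F2rl1 (log2 -2.24, SE 0.46, edgeR adjusted p = 2.13e-05) and Serpina1b (-1.95) among the latter.

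Genes beside the locus were followed as the surroundings of Prss2. Of 49 genes that start within 1 Mb outside the span, 13 passed the filter. With ERG-245 against PBS, 2 rose and 5 fell (53.8% of the 13 called, against 65.8% of all tested genes). Of these 1, the predicted gene Gm38795, changed at least 2-fold (log2 -1.18, SE 0.20, edgeR adjusted p = 4.81e-07), where 11.7% of tested genes did so. Ephb6, a kinase-dead ephrin receptor of T cells, fell from 55.2 to 31.5 CPM (log2 -0.81, SE 0.05, edgeR adjusted p = 1.52e-24). The median of the 13 was -0.28, against 0.00 over all tested genes, beside the log2 ratio of -5.92 of Prss2.

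In KO7 against WT6, 4 flanking genes rose and 7 fell (84.6% of the 13 called, against 68.9% of all tested genes). Of these, 4 changed at least 2-fold (17.5% of tested genes). Ephb6 fell from 115 to 52.1 CPM (log2 -1.13, SE 0.04, edgeR adjusted p = 4.19e-39) and Clec5a, a myeloid lectin, fell (log2 -1.97). Trpv5, a calcium channel, rose (log2 1.93), as did Kel, the Kell blood group protease of red cells, from 47.2 to 254 CPM (log2 2.43, SE 0.03, edgeR adjusted p = 8.35e-70). All 10 erythroid markers had counts, with sums of 11189 to 12888 CPM in WT6 and 55579 to 59049 in KO7, whose part in the Kel result was not tested. In KO3 against WT6, 4 rose and 4 fell (61.5% of the 13 called, against 59.7% of all tested genes). Of these, Ephb6 (log2 -1.59, SE 0.04, edgeR adjusted p = 1.2e-47), Gm34752 (-1.61) and Gm38795 (-1.30) were at least 2-fold lower (11.5% of tested genes changed that much).

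In WT6 against WT0 PBS, 4 flanking genes rose and 6 fell (76.9% of the 13 called, against 72.5% of all tested genes). Of these, 6 changed at least 2-fold (18.9% of tested genes). Clec5a (log2 2.24), Dennd11 (1.26) and Ephb6 (1.05) rose. Kel (log2 -2.92), Trpv5 (-2.22) and Clcn1, the chloride channel of muscle (-1.67), fell, where erythroid markers summed to 38658 to 40873 CPM in WT0 PBS. Prss2 stood at a log2 ratio of group means of -4.30 in this comparison, with no test.

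**Figure D5:**
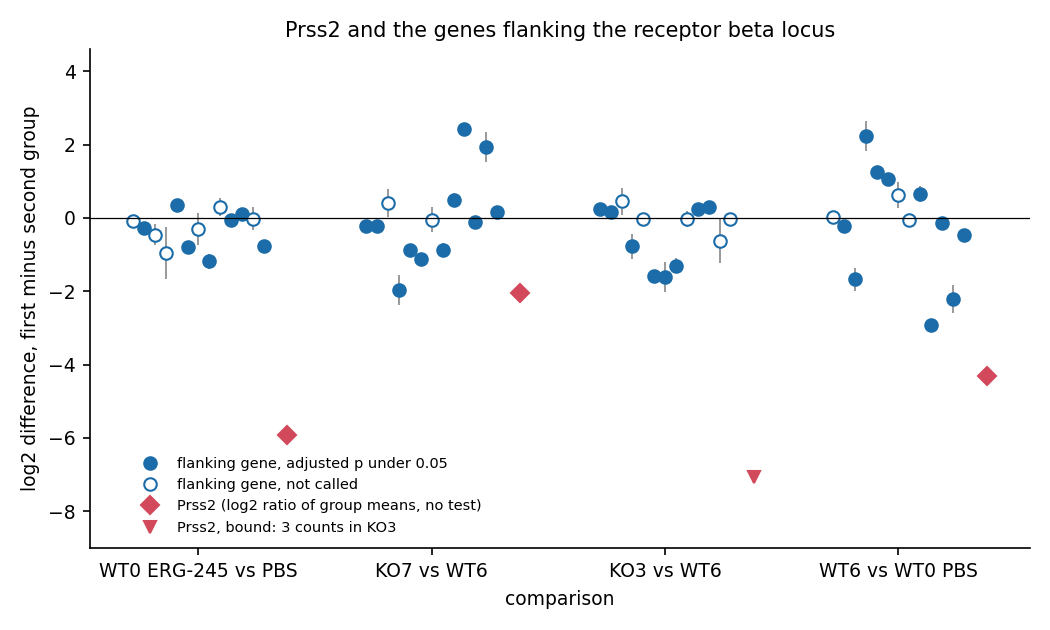
Log2 difference of the 13 flanking genes (circles with SE, filled where the edgeR adjusted p was under 0.05) and log2 ratio of group means of Prss2 (diamond, no test; triangle where KO3 is taken at 3 counts) in 4 comparisons. Flanking genes lie between -2.92 and 2.43, while Prss2 lies at -5.92, -2.06, at or below -7.07 and at -4.30.

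Across the 15 libraries, 34 of 10992 genes with 5 CPM or more on average had a Pearson r of 0.9 or more with Prss2 on log2 CPM. The 5 genes most like it outside the receptor loci were Atf7ip (r = 0.958), Gpatch8 (0.957), Atrn (0.953), Kmt2e (0.950) and Zfp142 (0.945). Their levels had the same highest and lowest group but a far narrower range: Atf7ip, a chromatin factor, stood at 165 CPM in WT0 PBS, 120 in WT0 ERG-245, 130 in WT6, 131 in KO7 and 105 CPM in KO3. Receptor segments are shown apart, with Trbv17 at 0.901, Trbv3 at 0.873 and Trgv2, of the gamma locus, at 0.798. Libraries of a group lie close to each other, so these values describe 5 groups more than 15 independent samples.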

How the data were processed

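RNA-seq counts of 15 libraries in 5 labelled groups of 3 were analysed. Raw counts of fragments per gene were deposited, made by the authors with featureCounts 2.0.1 over RefSeq exons of GRCm38.p6 (minimum overlap 25 bases, strand setting 2), per the file headers. The deposited exon length (another unit, bases per gene) was used for RPKM. Trim Galore, STAR, Subread and DESeq2 are named without settings in the submitters' processing notes. Alignments of the 3 WT0 PBS libraries carry DMSO in their names, per the file headers. Of 39836 lines, 9 belonged to 3 genes broken over several lines and were left out, and 39743 of 39827 genes had a symbol.

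Tests used edgeR 4.0.16 in R 4.3.3. Genes passing filterByExpr (15948) entered 1 quasi-likelihood fit to all libraries with TMM scaling and 10 residual degrees of freedom, adjusted by Benjamini-Hochberg over all tested genes, with a call under 0.05. The fit was run on simulated data for WT6 against WT0 PBS only, with far fewer changed genes than were called here. How it does where most genes change was not tested. The biological coefficient of variation between libraries of a group was 2.18%, and no pair of libraries was a duplicate (chi-square per degree of freedom 1.57 to 3.54). The 6 genes, the lists and the tests were chosen with earlier results of these data known. Named are the 6 genes, leading receptor segments, genes of a list or of the flanking set called with at least a 2-fold change (up to 6 by smallest p), and the 5 genes most like Prss2. Genes named outside that rule (Ephb6 with ERG-245 and markers at 0 among them) were chosen after their values were seen. Alternatives were DESeq2 1.42.0, other size factors, no filter, a replicate block, 2-group fits, levels per Cd3 count and leaving out each library.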

Additional observations from a re-analysis of the deposited data

How the results depend on the processing

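Of 320 values recomputed under alternatives for 33 results, 306 stayed and 14 moved. A change of direction was scored only for the log2 ratios of Prss2, where 0 changed. Since the compared groups did not overlap in Prss2, leaving out a library could not reverse these ratios. Relative to summed Cd3 counts, the log2 ratio of Prss2 was -5.16 with ERG-245 against PBS, -7.53 (bound) in KO3 against WT6 and -3.88 in WT6 against WT0 with PBS. Leaving out 1 library at a time, it was -6.05 to -5.72 with ERG-245, -2.16 to -1.92 in KO7 against WT6 and -4.38 to -4.20 in WT6 against WT0, and the bound in KO3 was -7.17 to -6.47 because the same 3 counts were set against 2 libraries. With no filter on low counts, 2 trypsinogen-like genes of the locus were called instead of 1 in KO7 against WT6, in KO3 against WT6 and in WT6 against WT0. Acinar marker calls went from 2 to between 1 and 2 with ERG-245 (1 without WT0 PBS replicate 2). In KO7 against WT6 they went from 4 to between 2 and 4 on leaving out a library (2 without WT6 replicate 2 or KO7 replicate 2). With only the 2 groups in the fit they went to 2, because Gp2 and Zg16 did not pass the filter there. Per exon length, Trbv19 held 53.9% of V counts in WT6. Replicate numbers did not pair the libraries (correlation of same-numbered deviations -0.158 to 0.107), and with a replicate block none of the 24 list counts moved past 1.5 times, for example 11 flanking genes called in KO7 against WT6. Depth limits Prss2 in KO3 to under 0.0467 CPM, and the other 5 trypsinogens cannot be ranked at 0 or 1 count.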

Other observations

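Other serine proteases, most of them of the trypsin fold, were measured as 30 genes, of which 23 passed the filter. Many of them serve in cytotoxic, mast and neutrophil granules, in clotting and on cell membranes. With ERG-245 against PBS, 10 rose and 5 fell (median log2 0.08), or 65.2% of those tested, where 65.8% of all tested genes were called. The granzyme Gzmb rose from 0.482 to 4.43 CPM (log2 3.19, SE 0.24, edgeR adjusted p = 1.1e-19) and Hpn, the membrane protease hepsin, rose (log2 1.33), whereas Prss34, a protease of mast cells and basophils, fell from 36 counts in the PBS libraries to 1 count in those with ERG-245, under the limit of 3 counts, so that no fold is given. In KO7 against WT6, 7 rose and 12 fell (82.6% of those tested, against 68.9% of all genes; median log2 -0.99), with the clotting factor F10 from 17.5 to 2.54 CPM (log2 -2.79) and Gzma from 415 to 167 CPM (log2 -1.32) among those that fell and Gzmb (log2 3.12) and Prss57 (1.51) among those that rose. In KO3 against WT6, 7 rose and 11 fell (78.3% against 59.7%; median log2 -0.18), with Gzmb (log2 2.75), prothrombin F2 (1.98) and Prss57 (1.26) higher and Klk8 (-2.21) lower. In WT6 against WT0 with PBS, 15 rose and 5 fell (87.0% against 72.5%; median log2 1.11), with the neutrophil elastase Elane (log2 4.73), Prss34 (4.18) and F10 (3.28) among those that rose. Neutrophil markers (9 of 9 with counts, Elane being one of them) summed to 68.9 to 70.9 CPM in WT0 with PBS, 3.04 to 4.48 with ERG-245, 317 to 340 in WT6, 128 to 136 in KO7 and 175 to 179 in KO3, and mast cell markers (8 of 8) to 19.7 to 23.2, 48.9 to 50.8, 35.7 to 39.8, 26.0 to 29.3 and 25.9 to 28.9 CPM. Their part in these protease results was not tested.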
